A study of Mus musculus with 4 samples.

Results

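Snrpn, Ndn, Mkrn3 and Ube3a are 4 genes of the imprinted Prader-Willi and Angelman domain of mouse chromosome 7, and they were followed here at every SNP where their reads could be assigned to a parent. They were chosen as all rows of the deposited allele counts that name one of the 4 genes. This gave 58 SNP rows with at least 1 read, 15 in exons and 43 in introns, out of 310998 such rows in 11222 genes. Ube3a held 29 of them (9 exonic, 20 intronic), Snrpn 26 (3 exonic, 23 intronic), Mkrn3 2 exonic SNPs and Ndn 1 exonic SNP.

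The counts come from poly(A) RNA of gonadal adipose tissue of F1 mice from reciprocal crosses of C57BL/6J (B) and DBA/2J (D), fed a chow diet and given an age of 8 weeks in the labels, while the methods give an older age. There were 4 RNA pools, 1 for each sex of each cross (BxD female, BxD male, DxB female and DxB male, where the first letter is the strain of the mother). A pool held 3 animals per the labels, and the one labelled DxB female held 2. In BxD mice the paternal allele is D and in DxB mice it is B. Every mouse is heterozygous at the SNPs of these 4 genes, and the parent that gave each allele changes with the cross.

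The sample labelled DxB female has a count file named as BxD male, and the sample labelled BxD male one named as DxB female. The file names were followed here. Under them 99.95% to 99.97% of the gene counts of a pool were the same as the per-pool counts of the study's supplementary gene table (1996 genes), and under the labels 13.8% were in each of the samples in question. Under the labels the mean paternal share over the pools was 53.1% for Snrpn, 51.5% for Ndn and 55.0% for Mkrn3, with single pools from 0 to 100%. By file name, the sample labelled with 2 animals is the BxD male pool. The paper lists 2 animals for its DxB female pool, so which of these pools held 2 is not certain. The 4 pools held between 3353668 and 4254814 reads at counted exonic SNPs, with 1.13 to 1.19 B reads for each D read, and between 420279 and 695785 reads at counted intronic SNPs. The 4 genes together took 168 to 213 counted reads per pool, so that most single values below rest on few reads. The intervals given cover counting error only and hold no spread between pools. The mates of a pair were counted as separate reads, so not all reads are independent and the intervals can be too narrow.

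As background, an imprinted gene is read mainly from the allele of one parent. In this domain an imprinting centre near the start of Snrpn is methylated on the maternal chromosome, and Snrpn, Ndn, Mkrn3 and Peg12 are known to be expressed from the paternal one. Ube3a encodes a ubiquitin ligase that is expressed from the maternal chromosome in neurons, where a long paternal transcript runs across it from the opposite strand, and from both chromosomes in most other tissues. Loss of the paternal copies of the human domain causes Prader-Willi syndrome, with obesity among its features, and loss of the maternal UBE3A causes Angelman syndrome.

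In the GENCODE M1 annotation of mm9, Ube3a lies on the forward strand of chromosome 7 from 66484122 to 66562097 and Snrpn on the reverse strand from 67127388 to 67285105. Ndn (69493163 to 69494814, forward) and Mkrn3 (69562479 to 69565039, reverse) each consist of 1 exon. The base that the files give for B equalled the mm9 base at 58 of the 58 SNPs. The windows below are shown because the reads that tell the parents apart in each gene lie mainly on these positions. Each runs 5′ to 3′ on the strand of its gene for 29 bases, once as B and once as D carries it, with the SNP in capitals. Each window with the B base occurs at 1 place in mm9.
Snrpn exon, B, chr7:67133534-67133562: ttatatcccttcccCgagtattaaggatc
Snrpn exon, D, the same window: ttatatcccttcccTgagtattaaggatc
Snrpn intron, B, chr7:67148785-67148813: gattttctctgagaTctctataactactt
Snrpn intron, D, the same window: gattttctctgagaCctctataactactt
Ndn exon, B, chr7:69493329-69493357: ctttgcagccgaggTccccgactgtgaga
Ndn exon, D, the same window: ctttgcagccgaggCccccgactgtgaga
Mkrn3 exon, B, chr7:69563405-69563433: aaaaaagagcattcTgtgcttcgcctggc
Mkrn3 exon, D, the same window: aaaaaagagcattcCgtgcttcgcctggc
Mkrn3 exon, B, chr7:69564287-69564315: gcagcaggtgctgcAgcgggagcgggtgc
Mkrn3 exon, D, the same window: gcagcaggtgctgcGgcgggagcgggtgc
Ube3a exon, B, chr7:66541525-66541553: gctatttacaataaTtgtatactggatgt
Ube3a exon, D, the same window: gctatttacaataaCtgtatactggatgt

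Reads of Snrpn, which encodes the spliceosomal protein SmN, came almost wholly from the paternal allele in every pool. At its 3 exonic SNPs the BxD female pool had 0 maternal and 5 paternal reads, the BxD male pool 1 and 7, the DxB female pool 0 and 31 and the DxB male pool 0 and 36. The allele that was read changed with the direction of the cross, from D in the BxD pools to B in the DxB pools. The sum of 79 paternal reads and 1 maternal read is a ratio of 79.0, with an exact 95% interval from 13.8 to 3159. The maternal share was 1.25% (Wilson interval 0.221% to 6.75%).

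The exonic reads of Snrpn lay mostly on 1 SNP. The SNP at 67133548 gave 68 of the 80 reads, and the single maternal read fell on it, in the BxD male pool. It lies in exon 4 of the 10 exons of transcript Snrpn-201, which the files annotate as 5′ untranslated for Snrpn and as 3′ untranslated for Snurf, an upstream reading frame of the same transcript. Its counts cannot be told apart between these overlapping genes and were counted once, under Snrpn. The synonymous SNP at 67131688 had 8 reads, all from the DxB pools and all paternal, and the 3′ untranslated SNP at 67127862 had 4, all paternal.

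**Figure D1:**
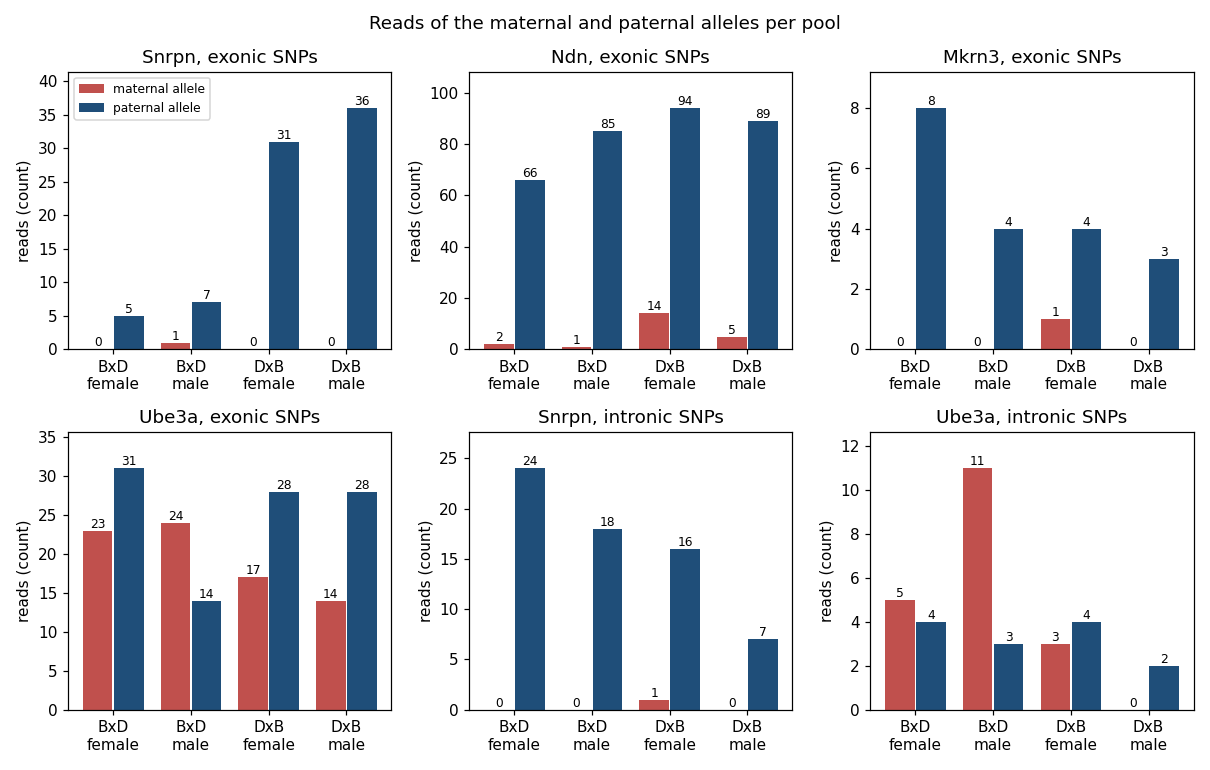
Number of reads of the maternal (red) and paternal (blue) alleles in each of the 4 pools, for the exonic SNPs of Snrpn, Ndn, Mkrn3 and Ube3a and for the intronic SNPs of Snrpn and Ube3a. The bar labels give the counts. The blue bars are far taller than the red ones for Snrpn, Ndn and Mkrn3 in all pools, from 3 to 94 paternal against 0 to 14 maternal reads, and Ube3a shows both colours in every pool at its exonic SNPs.

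The introns of Snrpn held nearly as many reads as its exons and were also read from the paternal allele. Whether these reads come from unspliced Snrpn RNA was not tested, and the sources describe no step that marks the strand. Over 23 intronic SNPs BxD females had 0 maternal and 24 paternal reads, BxD males 0 and 18, DxB females 1 and 16 and DxB males 0 and 7. The paternal share was 98.5% (Wilson interval 91.9% to 99.7%) of 66 reads. The single maternal read came from the SNP at 67128238, in the last intron, where the same pool also had 1 paternal read.

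These intronic reads were gathered near the start of transcript Snrpn-201. Its first intron, from 67144300 to 67149921, held 58 of the 66 reads, at 17 SNPs that lie 372 to 5273 bp downstream of the annotated start, and 58 of the 58 were paternal (Wilson interval 93.8% to 100%). This is 10.3 reads per kb of intron, against 0.531 reads per kb over introns 2 to 9 together. The SNPs with most reads were at 67148799 (13 reads), 67148778 (9 reads) and 67147888 (9 reads). The first pair lie 21 bp apart, within the length of 1 read, so the same reads can be counted at both. The files list only SNPs with reads, and the number of SNPs that could have been covered in each intron is not known from them.

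**Figure D2:**
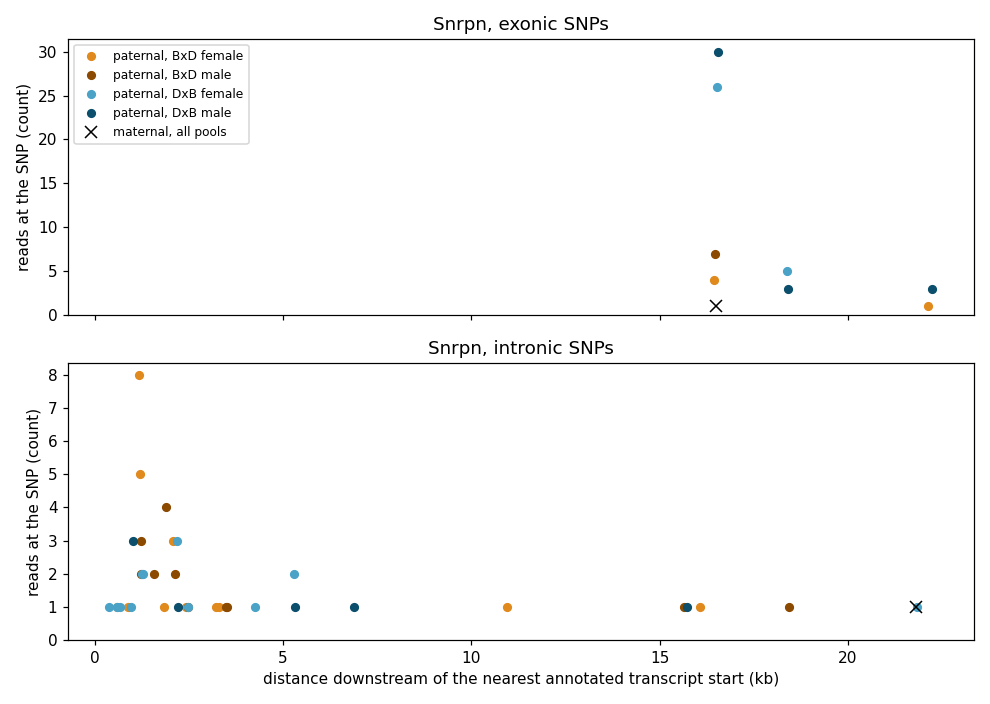
Reads at each SNP of Snrpn (vertical axis, count) against its distance downstream of the nearest annotated transcript start (horizontal axis, kb), with exonic SNPs above and intronic SNPs below. Each dot is the paternal count of 1 pool, shifted slightly sideways by pool so that dots do not hide each other, and each cross the maternal count over the pools. The intronic dots crowd within 5273 bp of the start, the exonic dots of the DxB pools at one SNP reach 26 and 30 reads, and the only maternal counts are 1 read above and 1 below.

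The parental test, which compared the summed counts of the maternal and paternal allele libraries over all genes, called Snrpn in introns but not in exons. In introns the log2 paternal to maternal ratio was 5.42 (standard error 0.75, edgeR quasi-likelihood adjusted p = 0.00677), one of 3 genes called among 9561, or 0.0314% (0.0209% in the paternal direction). With the alleles of a pool paired as a block the ratio was 5.47 and the call was lost (edgeR adjusted p = 0.728), and without the BxD female pool it was 4.84 (edgeR adjusted p = 0.109). DESeq2 also called it (adjusted p = 0.00162, with 0.0418% of genes called), as did edgeR with the strain of the allele as a covariate (adjusted p = 2.75e-10, with 0.115% called, and 0.0418% in the paternal direction). In exons the log2 ratio was 5.82 (standard error 1.14, unadjusted p = 8.01e-04, edgeR adjusted p = 0.914), where 4 of 7990 genes were called, or 0.0501% (0.0250% in the paternal direction).

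The exonic test of Snrpn moved with the model. DESeq2 gave a log2 ratio of 6.09 with an adjusted p of 0.018, and 7 of 7978 genes were called, or 0.0877%. With the strain of the allele as a covariate the ratio was 5.92 (standard error 0.69) and the edgeR adjusted p 0.00383, and 0.0876% of all genes were called. Exonic and intronic SNPs together gave 5.89, with an edgeR adjusted p of 0.0461, and 4 of 11055 genes were called, or 0.0362%. With the alleles of a pool paired as a block the exonic ratio was 5.47, and 0 of 7990 genes were called. Over all alternatives the adjusted p ranged from 0.00383 to 1. Without the SNP at 67133548 there were 0 maternal and 12 paternal reads.

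Exonic Snrpn reads were more numerous in both DxB pools than in both BxD pools, while its intronic reads were not. Scaled to the exonic reads of each pool, Snrpn exons stood at 1.18 RPM (reads-per-million) in BxD females and 1.92 in BxD males, against 7.54 in DxB females and 10.7 in DxB males. The exonic levels of the crosses did not overlap. How many of all genes separate in this way was not counted, and with 2 pools per cross it often happens by chance. For the summed exonic counts of both alleles the log2 DxB to BxD ratio was 2.61 (standard error 0.51, unadjusted p = 0.00171, edgeR adjusted p = 0.94), and no gene was called by cross (0 of 7990, or 0%, with 299 genes at an unadjusted p under 0.05 and 4 genes called by DESeq2). Scaled to the intronic reads, Snrpn introns stood at 34.5 RPM in BxD females, 30.39 in BxD males, 30.42 in DxB females and 16.7 in DxB males. The crosses overlapped only narrowly. Before scaling, the intronic reads were 24 and 18 in BxD females and males and 17 and 7 in DxB females and males, fewer in DxB. The intronic log2 DxB to BxD ratio was -0.40 (standard error 0.47, edgeR adjusted p = 0.983). There were 0.208 and 0.444 exonic reads for each intronic one in BxD females and males, and 1.82 and 5.14 in DxB females and males. Summed over the pools of a cross, each of the 3 exonic SNPs had more reads in DxB. At 67127862 this rests on 3 reads in the DxB male pool against 1 in the BxD female pool, and the DxB female pool had 0. At 67133548 the BxD female and male pools had 4 and 8 reads, and the DxB female and male pools 26 and 30. Because Snrpn was read from one parent, the direction of the cross and the strain of the allele that was read cannot be told apart here, and in bulk tissue fewer cells of a type and less RNA per cell cannot be told apart either.

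Ndn encodes necdin, a MAGE family protein known as a growth suppressor and as a brake on adipocyte differentiation, and it gave the most reads of the 4 genes. Its single SNP, at 69493343, lies in the coding part of its only exon, 180 bp downstream of the start, and the files annotate it as changing an amino acid. The BxD female pool had 2 maternal and 66 paternal reads, the BxD male pool 1 and 85, the DxB female pool 14 and 94 and the DxB male pool 5 and 89. The paternal allele gave most reads in every pool, and the sum of 22 maternal and 334 paternal reads is a ratio of 15.2, with an exact 95% interval from 9.86 to 24.6.

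The maternal reads of Ndn were unevenly spread over the crosses. They made up 2.94% and 1.16% of the reads in the BxD female and male pools and 13.0% and 5.32% in the DxB female and male pools. The pools of the crosses did not overlap, which chance alone often gives with 2 pools per cross. The share of all genes that separate in this way was not counted. Summed per cross, the maternal share was 1.95% in BxD (3 of 154 reads, Wilson interval 0.665% to 5.57%) and 9.41% in DxB (19 of 202 reads, 6.10% to 14.2%). The intervals do not overlap and 14 of the 19 reads came from the DxB female pool, which the paper lists with 2 animals. Over pools, a two-sided exact permutation test gave p = 0.333, the smallest that 2 pools per cross allow. The maternal allele is B in BxD and D in DxB mice, so cross and strain cannot be told apart here. Ndn levels were 16.0 RPM in BxD females, 20.7 in BxD males, 26.3 in DxB females and 28.0 in DxB males. The log2 DxB to BxD ratio of both alleles together was 0.64 (standard error 0.26, unadjusted p = 0.0459, edgeR adjusted p = 0.94).

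In the parental test Ndn had a log2 paternal to maternal ratio of 3.86 (standard error 0.72, unadjusted p = 5.68e-04, edgeR adjusted p = 0.756) and was not called. DESeq2 called it, with a log2 ratio of 3.89 and an adjusted p of 5.01e-06, and so did edgeR with the strain of the allele as a covariate (3.97, edgeR adjusted p = 0.0113). With the alleles of a pool paired as a block the ratio was 4.34, and Ndn was not called. Over all alternatives the adjusted p ranged from 5.01e-06 to 1. At the level of single SNPs, which sets counting error alone against the change of allele between the crosses, Ndn had a two-sided Fisher exact p of 3.0e-74 (adjusted p = 4.36e-70 over 305154 SNPs) and Snrpn at 67133548 one of 7.83e-12 (adjusted p = 2.57e-08). These were the 2 SNPs of the 4 genes that passed, where 163 of all SNPs did, or 0.0534% (0.0285% in the paternal direction). Both passed with each pool left out in turn.

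**Figure D3:**
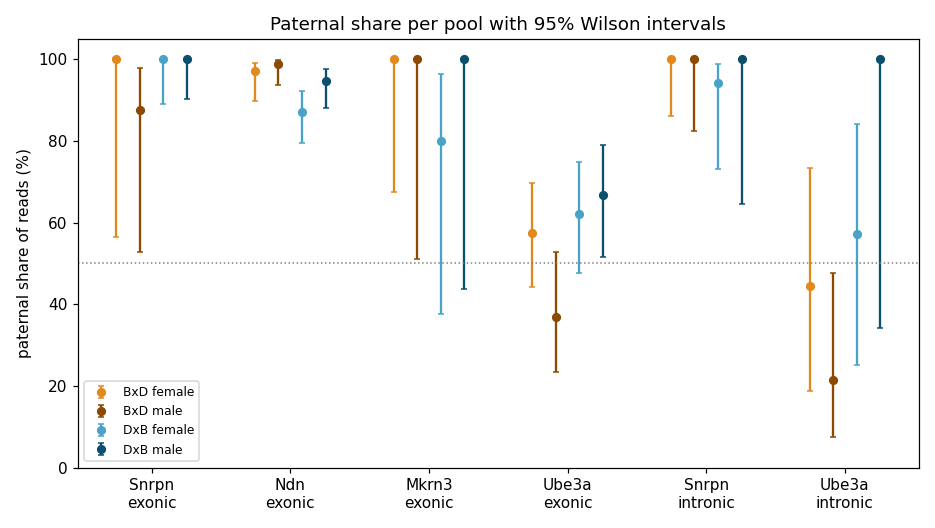
Share of reads from the paternal allele (vertical axis, percent) for each gene and kind of SNP (horizontal axis), with 1 point per pool and 95% Wilson intervals that cover counting error. The dotted line marks equal alleles. Snrpn, Ndn and Mkrn3 lie between 80.0% and 100% in all pools, Ndn is lowest in the DxB female pool at 87.0%, and Ube3a exonic SNPs lie between 36.8% and 66.7%.

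Mkrn3 encodes a RING finger protein of the makorin family, known for holding back the onset of puberty, and it had 20 reads in all. At its synonymous SNPs, 69563419 and 69564301, the BxD female pool had 0 maternal and 8 paternal reads, the BxD male pool 0 and 4, the DxB female pool 1 and 4 and the DxB male pool 0 and 3. The maternal read fell on 69563419, which had 1 maternal and 7 paternal reads, while 69564301 had 0 and 12. The paternal to maternal ratio was 19, with an exact 95% interval from 3.02 to 789. The log2 ratio of the parental test was 3.68 (standard error 0.89, unadjusted p = 0.00304, edgeR adjusted p = 1.0) and no alternative called it. The paternal share of 95% has a Wilson interval from 76.4% to 99.1%, so at this depth it could not be told from that of Snrpn or Ndn. Its level was 1.88 RPM in BxD females, 0.962 in BxD males, 1.22 in DxB females and 0.895 in DxB males, each from 3 to 8 reads.

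Ube3a was read from both alleles in every pool. At its 9 exonic SNPs BxD females had 23 maternal and 31 paternal reads, BxD males 24 and 14, DxB females 17 and 28 and DxB males 14 and 28. The paternal allele led in 3 of the 4 pools, and the BxD male pool leaned to the maternal one. The paternal share was 56.4% (Wilson interval 49.1% to 63.5%) of 179 reads, with a mean over pools of 55.8% ± 13.2 (SD, n = 4). The log2 paternal to maternal ratio was 0.40 (standard error 0.30, edgeR adjusted p = 1.0), and the ratio of 1.29 has an exact 95% interval from 0.954 to 1.76. Summed per cross, the maternal share of its exonic reads was 51.1% in BxD (Wilson interval 41.0% to 61.1%) and 35.6% in DxB (26.4% to 46.1%), with overlapping intervals. By pool it was 42.6% and 63.2% in BxD females and males and 37.8% and 33.3% in DxB females and males. The pools of the crosses did not overlap, which again chance alone often gives with 2 pools per cross. Here too the share of all genes that separate was not counted. The difference of the means over pools, DxB minus BxD, was -17.3 percentage points, and a two-sided exact permutation test gave p = 0.333, again the smallest that 2 pools per cross allow. As for Ndn, the maternal allele is B in BxD and D in DxB mice, so cross and strain cannot be told apart. An excess of B reads alone would give a difference in this direction. Ube3a had 103 B and 76 D exonic reads, among them 8 B and 0 D reads at the SNP at 66560839. Ube3a levels were 12.7 RPM in BxD females, 9.14 in BxD males, 10.9 in DxB females and 12.5 in DxB males, and did not separate the crosses or the sexes. The sources used here describe no step that marks the strand, so reads of Ube3a and of a transcript on the opposite strand cannot be told apart.

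The exonic SNPs of Ube3a did not all lean the same way. The synonymous SNP at 66541539 in exon 8 gave 103 of the 179 reads, 37 maternal and 66 paternal (64.1% paternal, Wilson interval 54.5% to 72.7%). Its paternal share was 73.3% in BxD females, 47.6% in BxD males, 64.3% in DxB females and 66.7% in DxB males. Fisher's exact test gave p = 0.00577 (adjusted p = 1.0), among 3957 SNPs with an unadjusted p under 0.05. The 3′ untranslated SNP at 66560651 had 24 maternal and 20 paternal reads, and the synonymous SNP at 66527581 had 10 and 7. The SNP at 66560839 had 8 B reads and 0 D reads, so it told nothing of the parent. Without it the sums were 74 maternal and 97 paternal reads, and the log2 ratio was 0.41. The other 5 SNPs, which the files place in an exon but annotate as intronic, had 7 reads together.

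The introns of Ube3a gave 32 reads at 18 counted SNPs, 19 maternal and 13 paternal. By pool these were 5 and 4 in BxD female, 11 and 3 in BxD male, 3 and 4 in DxB female and 0 and 2 in DxB male. The paternal share was 40.6% with a Wilson interval from 25.5% to 57.7%, and the log2 ratio was -0.46 (standard error 0.75, edgeR adjusted p = 1.0). The reads lay from 3407 to 75233 bp downstream of the start, with at most 6 at 1 SNP. Many of them fell close together in intron 6, with 3 reads at 66533559, 6 at 66534757 and 3 at 66534852.

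**Figure D4:**
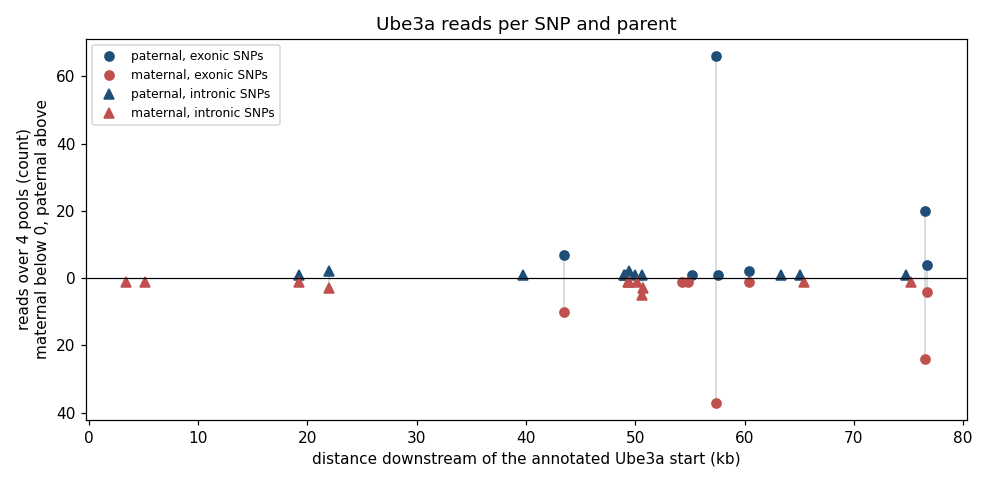
Reads over the 4 pools at each counted SNP of Ube3a, paternal above 0 (blue) and maternal below 0 (red), against the distance downstream of the annotated start in kb. Circles are exonic and triangles intronic SNPs. Both colours occur along the gene, and the SNP with most reads has 66 paternal and 37 maternal reads.

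With the pool as the unit, the mean paternal share was 96.9% ± 6.25 for Snrpn in exons, 98.5% ± 2.94 for Snrpn in introns, 94.4% ± 5.20 for Ndn and 95% ± 10 for Mkrn3 (SD, n = 4 pools each). All 4 pools were above 50% in each case. A two-sided exact permutation test of the sign of these deviations gave p = 0.13 for each, which is the smallest p that 4 pools allow, and 0.5 for Ube3a in exons. Of the 6921 genes with at least 10 exonic reads, 10 had a paternal share of at least 90%, or 0.144%, and Snrpn, Ndn and Mkrn3 were 3 of them. The median over these genes was 49.8%, with 38.5% and 59.9% as the 5th and 95th percentiles, and Ube3a lay within that range.

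None of the 4 genes was called between the strains or the sexes. The log2 D to B ratio was -2.48 for Snrpn (68 B and 12 D reads, standard error 1.26, edgeR adjusted p = 0.243), -0.18 for Ndn (186 and 170 reads, standard error 1.04), 0.86 for Mkrn3 (7 and 13, standard error 1.09) and -0.35 for Ube3a (103 and 76, standard error 0.29), while 17.7% of all genes were called, or 27.2% with the pool as a block. For each strain, these libraries held the paternal allele of one cross and the maternal allele of the other. The log2 male to female ratio was 0.56 for Snrpn (standard error 0.75), 0.27 for Ndn (0.31), -0.64 for Mkrn3 (0.87) and -0.05 for Ube3a (0.32), with adjusted p-values from edgeR of 0.885 or more, where 2.79% of all genes were called (1.94% by DESeq2). For Snrpn this value turned on single pools, from -1.13 without the DxB male pool to 2.51 without the DxB female pool (edgeR adjusted p = 0.0109).

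Along the domain, the genes read mainly from the paternal allele were neighbours in the order of genes with reads, and most of the others were read from both. Of 23 genes of the domain and its borders, 16 had a row in the files and 13 had counted exonic reads. Peg12, a paternally expressed gene beside Mkrn3, had 0 maternal and 14 paternal reads at 2 SNPs. By pool it had 2, 5, 5 and 2 paternal reads in BxD female, BxD male, DxB female and DxB male (unadjusted p = 0.00314, edgeR adjusted p = 1.0), where a maternal share of up to 21.4% could have been missed. On the other side of Ube3a, Atp10a, which encodes a phospholipid flippase, had 87 maternal and 84 paternal reads. Herc2, another ubiquitin ligase gene, had 403 and 365, and Cyfip1, an actin regulator, 1392 and 1403. None of the 9 genes besides Snrpn, Ndn, Mkrn3 and Ube3a passed the parental test. The 7 of them reported here with at least 10 exonic reads had a median paternal share of 50.2%, with 6 between 40% and 60%, and the median over all genes was 49.8%. The median of 50.2% and the 6 genes include Nipa1, whose reads were all from B and told nothing of the parent.

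The exception among these 7 was Peg12. Nipa1, a magnesium transporter gene, had 81 B and 0 D reads at its exonic SNPs and so gave no parental information in spite of a paternal share of 56.8%. At the intronic SNPs no gene of the list besides Snrpn was called.

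**Figure D5:**
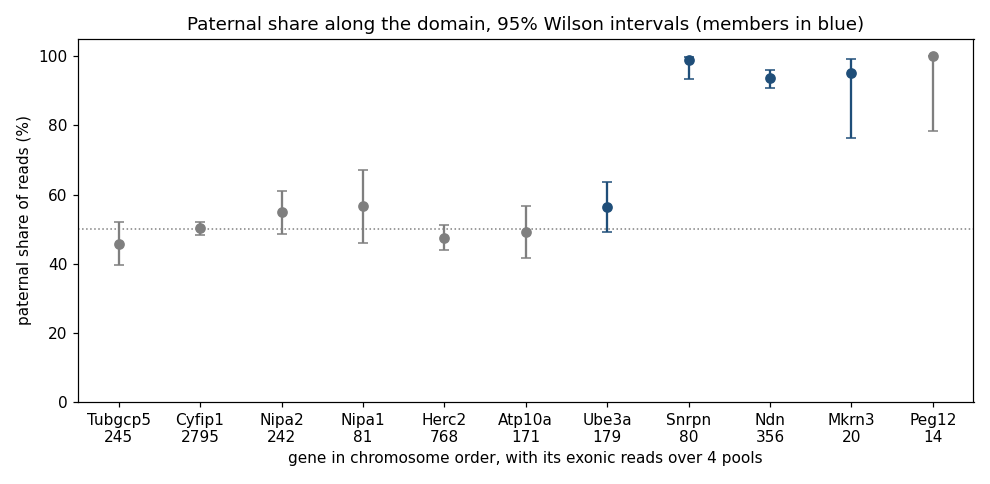
Paternal share of exonic reads over the 4 pools (vertical axis, percent) with 95% Wilson intervals, for the reported genes of the domain with at least 10 exonic reads in their order on the chromosome. The number under each name is its count of reads, and Snrpn, Ndn, Mkrn3 and Ube3a are in blue. Snrpn, Ndn, Mkrn3 and Peg12 stand at 93.8% to 100% and Ube3a and the other 6 genes lie between 40% and 60%. Among these 6 is Nipa1, whose reads were all from B, so that its share tells nothing of the parent.

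Among 5454 genes with at least 10 exonic reads in every pool, those whose 4 paternal shares were closest to those of Snrpn were Sgce, Ndn and Trappc9, with root mean square differences of 6.09, 9.13 and 9.50 percentage points over the 4 pools. Closest to Ndn were Sgce (5.81), Trappc9 (7.44) and Plagl1 (11.2). Sgce, which encodes a sarcoglycan, had 28 maternal and 2592 paternal reads and lies in another imprinted region. The shares of Snrpn in the BxD pools rest on 5 and 8 reads, so its order of likeness is uncertain.

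The tissue was checked with lists of marker genes. The adipocyte markers with counted SNPs (3 of 8, namely Car3, Cidec and Lep) took 80996 to 106462 RPM of exonic reads, and the remaining markers of that list had no counted exonic reads. Of 6 neuron markers only Tubb3 had counted exonic reads (5 in all), at 0 to 0.722 RPM. Snap25, Syp and Rbfox3 had no SNP row, and Stmn2 and Syt1 had no counted exonic reads. The level of neuron RNA therefore rests on 1 gene and is not known from the list. Wt1, 1 of 4 mesothelial markers, ran from 15.8 to 82.7, and the fibroblast (2200 to 3364, 2 of 4), macrophage (234 to 492, 1 of 4) and endothelial markers (36.4 to 51.9, 1 of 4) were present in every pool. The part of these cells in the counts of the 4 genes was not tested.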

How the data were processed

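For each of 4 RNA pools of F1 gonadal adipose tissue, the authors deposited raw counts of uniquely aligned reads carrying the B and the D base at known SNPs, with gene, annotation and exon or intron, without normalization. Per the methods, mates were aligned as single reads with mrsFAST to mm9 with D variants masked (a supplement reads as if masking was not applied), then TopHat (version 1 in the submitters' processing notes, which also name CASAVA). No removal of PCR copies is described, so reads of 1 fragment can be counted more than once.

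The rows of Snrpn, Ndn, Mkrn3 and Ube3a were taken. These members, the domain list and the marker lists were chosen with earlier results of these data known. Cross and sex came from the file names, since labels and file names disagree for 2 samples. Within an exon or intron, a SNP within 18 bp of the last counted one was left out (2 SNPs of the 4 genes, both in Ube3a introns), and a SNP shared by overlapping genes counted once. SNPs given an exon by the files were called exonic.

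Counts were summed per gene over all 7990 genes with exonic and 9561 with intronic reads and tested with edgeR 4.0.16 in R 4.3.3 (TMM, quasi-likelihood test, Benjamini-Hochberg adjustment over all genes, threshold 0.05), the alleles of a pool being separate libraries as in the study's own test. The standard error is the absolute log2 ratio over the square root of F. The pools are the only replicates, 1 per cross and sex, and the p-values of total levels measure the spread between pools. In the parental test each parent's libraries mix both strains. Its spread therefore also holds differences between the strains, unless strain is a covariate. In the strain test each strain's libraries mix both parents. The alleles of a pool come from the same animals, and their deviations from the strain means correlated at 0.520 to 0.685 across 4232 genes in all 4 pools, so a fit blocked on the pool is given where it changes a call. Per SNP, a two-sided Fisher exact test of allele by cross was adjusted over all 305154 SNPs with a read. Shares have 95% Wilson intervals, ratios exact ones, and a share of 0 allows up to 3 reads. The fits and the Fisher test were tested on simulated counts.

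Alternatives were the label identity, DESeq2 1.42.0, the pool block, the strain covariate, other scalings, at least 10 counts, other sets of SNPs and leaving out 1 pool at a time. Added after the data were seen were the fits without the Snrpn SNP at 67133548 or the Ube3a SNP at 66560839, intronic SNPs at least 50 bp apart, and total levels from intronic SNPs. Named genes were the 4 members, the domain list and, for Snrpn and Ndn, the 3 genes with at least 10 exonic reads in every pool and the most similar paternal shares. Sequences came from NCBIM37 (mm9) and annotation from GENCODE M1. Tables were made in Python 3.11.15 (pandas 2.3.3, scipy 1.17.1) and figures with matplotlib 3.10.9. One gene of the domain list and one marker list are not reported here.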

Additional observations from a re-analysis of the deposited data

Results flagged for a closer look

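One pool stood apart from the other 3 in 3 of the paternal shares, by Dixon's ratio. Chance passes this ratio in about 1 of 20 sets of freely varying values, a rate that does not apply here, since the other 3 pools were tied at 100% and any maternal read in the remaining pool passes it. These were Snrpn in exons, at 87.5% in the BxD male pool (7 of 8 reads) against 100% in the others, Snrpn in introns, at 94.1% in the DxB female pool (16 of 17 reads) against 100%, and Mkrn3, at 80.0% in the DxB female pool (4 of 5 reads) against 100%. In each case the gap is 1 maternal read.

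The paternal share of Ube3a intronic reads lay on opposite sides of equality in the crosses. It was 44.4% and 21.4% in the BxD female and male pools and 57.1% and 100% in the DxB female and male pools, which means more B than D reads in every pool. These shares rest on 9, 14, 7 and 2 reads, and the difference between the crosses was not tested.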

How the results depend on the processing

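Low counts limited every value of Mkrn3, of Snrpn in BxD exons and of Ube3a introns, and the choice of identity for 2 pools changed the parental values of Snrpn, Ndn and Mkrn3. With the labels, the mean paternal shares were 53.1% for Snrpn, 51.5% for Ndn and 55.0% for Mkrn3, the log2 paternal to maternal ratio of Ndn was -0.048, that of Snrpn introns -0.16 and that of Ube3a introns 0.76, and 0 of the 2 SNPs of these genes and 58 SNPs in all (163 with the file names) passed Fisher's exact test. The exonic parental test called 4 genes by edgeR. It called 0 with the labels, 7 with DESeq2, 0 with the pool as a block (37 genes at an unadjusted p under 0.05), 7 with the strain covariate, 2 with all exonic SNPs, 2 with exonic SNPs by annotation and 0 to 1 with a pool left out. Its log2 ratio was past the threshold for Snrpn at 6.09 (DESeq2), 5.92 (strain covariate) and 5.89 (exonic with intronic SNPs), and for Ndn at 3.89 (DESeq2) and 3.97 (strain covariate). The intronic parental test called 3 genes, 0 with the labels, 0 with the block and 11 with the strain covariate. Its log2 ratio for Snrpn was 5.47 with the block, where the call was lost, and 4.84 to 7.01 with a pool left out, and for Ube3a it was -0.73 to 0.36. The strain test called 2174 genes with the block (1415 without), where the log2 D to B ratio of Ndn was 0.18. With a pool left out, that ratio was -1.20 to 0.82 for Ndn and -0.39 to 1.85 for Mkrn3. The block changed no other call of these genes. By sex, 223 genes were called, 0 with the labels, 137 with DESeq2, 50 with at least 10 counts, 548 with exonic and intronic SNPs, 133 from intronic SNPs alone and 44 to 638 with a pool left out. The log2 male to female ratio was -0.37 for Snrpn from introns, and for Ube3a 0.20 with the labels, 0.0096 with both kinds of SNP and 0.30 from introns. With a pool left out it was -1.13 to 2.51 for Snrpn, -0.11 to 0.75 for Ndn and -0.30 to 0.18 for Ube3a. By cross, 0 genes were called by edgeR (299 at an unadjusted p under 0.05), 223 with the labels, 4 with DESeq2, 18 from introns and 0 to 2 with a pool left out. The log2 DxB to BxD ratio was -0.40 for Snrpn and -0.97 for Ube3a from introns, -0.052 for Ube3a with the labels and -0.64 to 0.15 for Mkrn3 with a pool left out. Levels from introns alone were chosen after seeing the data. The cause of these changes was not tested, beyond the change of samples, SNPs or model that each alternative makes. The other 148 values of the main comparisons and 91 values of single genes kept their direction and side of the threshold, or, for counts and shares, stayed within 1.5 times or 1 SD.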
